A study of Mus musculus with 48 samples.

Results

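The oxidative phosphorylation genes of the mouse kidney were followed across sex, genotype and dietary phosphate. A gene was a member if its annotated symbol began with Nduf, Sdha, Sdhb, Sdhc, Sdhd, Uqcr, Cox4, Cox5, Cox6, Cox7, Cox8 or Atp5. This rule found 94 genes, read by 185 probe sets, and took in assembly factors and tissue isoforms beside the subunits. Each gene was represented by the probe set of highest mean log2 signal, and 91 of the 94 genes had a probe set above the filter on low signals, among 18633 features tested in all. By complex there were 42 members in complex I, 8 in complex II, 8 in complex III, 19 in complex IV and 17 in complex V.

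Whole-kidney total RNA came from 72 mice aged 10 weeks, combined into 24 pools of 3 mice. The 8 groups of 3 pools crossed genotype, sex and diet: Hyp/Y males, Hyp/+ females and their normal littermates of each sex, each fed a control or a low-phosphate diet for 3 days with deionized water. The Hyp mutation lies in Phex, on the X chromosome. Hyp/+ females still carry 1 normal copy, and the genotype comparison averages them with hemizygous males. Each pool was hybridised to the Affymetrix 430A and 430B chips, and p-values refer to the spread between pools, which hides the spread between single mice. The strain C57BL/6J is named in the labels of 1 sample.

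Oxidative phosphorylation transfers electrons from NADH and succinate through complexes I to IV of the inner mitochondrial membrane to oxygen, and complex V uses the resulting proton gradient to make ATP. Complex I oxidises NADH, complex II oxidises succinate, complex III passes electrons to cytochrome c and complex IV reduces oxygen. The kidney tubule, above all the proximal tubule and the thick ascending limb, depends on this pathway for the ATP that drives salt and phosphate reabsorption, and several complex IV subunits exist as isoforms that replace one another in heart, skeletal muscle, brown fat, testis or hypoxia.

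Most members gave high signals in all 24 pools. The 10 of highest mean signal were Uqcrb, Cox6a1, Cox6b1, Atp5g3, Cox5b, Atp5b, Cox6c, Atp5a1, Cox7a2 and Cox4i1, from 24752 for Uqcrb down to 14875 for Cox4i1. The 5 tested members of lowest mean signal were Ndufb1 (281), Ndufa4l2 (206), Cox6a2 (176), Cox8b (124) and Ndufb4 (78.8, on the 430B chip). Probe sets differ in how well they hybridise, so these signals describe the probe sets and do not order the genes by transcript number. For scale, the median signal of a 430A array was 164.65 to 211.2, and that of a 430B array was 50.9 to 68.3. The 3 members below the filter were Cox4i2 (69.4 to 197.4), Cox7c (72.2 to 196.5) and Cox7b2 (3.4 to 53.4). Cox4i2 is the hypoxia-associated isoform of subunit 4 and Cox7b2 a testis isoform; Cox7c is a subunit of every tissue, and its low value is that of the probe sets annotated to it.

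The members varied little between pools of a group. Their median standard deviation was 0.13 on the log2 scale, against 0.29 over all features, and the median standard error of a member's difference between sexes, genotypes or diets was 0.06 against 0.12. For genotype, 77 of 91 members had a 95% confidence interval lying wholly within 0.25 log2 units of 0, against 26.2% of all features. The count was 75 for diet, against 27.2%, and 59 for sex, against 16%.

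Sex gave the only members past the threshold, an adjusted p under 0.05 by limma with Benjamini-Hochberg adjustment over all features. In the male kidney 3 members were higher and 8 were lower than in the female kidney, of 91 tested. The 8 include Cox8b, which passed the filter on low signals through female arrays alone. Over all features 6.08% were called higher and 9.87% lower in males, and the members' shares were 3.30% and 8.79%, the second near the background. The median member difference was -0.05 log2 (male minus female), and so was the median over all features. Setting each array to the same median signal changed the split to 7 higher and 3 lower (7.69% and 3.30%, against 8.99% and 5.21% of all features) and the members' median to 0.043, against 0.017 over all features. Quantile normalization gave 3 higher and 14 lower (3.30% and 15.4%, against 6.81% and 8.47%). With no filter the lower share was 7.45% of members against 5.72% of all features. With the series number of the pools as a replicate block it was 13.2% against 11.1%. Whether the members' share of lower calls lies below or above that of all features thus depends on the scaling, the filter and the block.

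**Figure D1:**
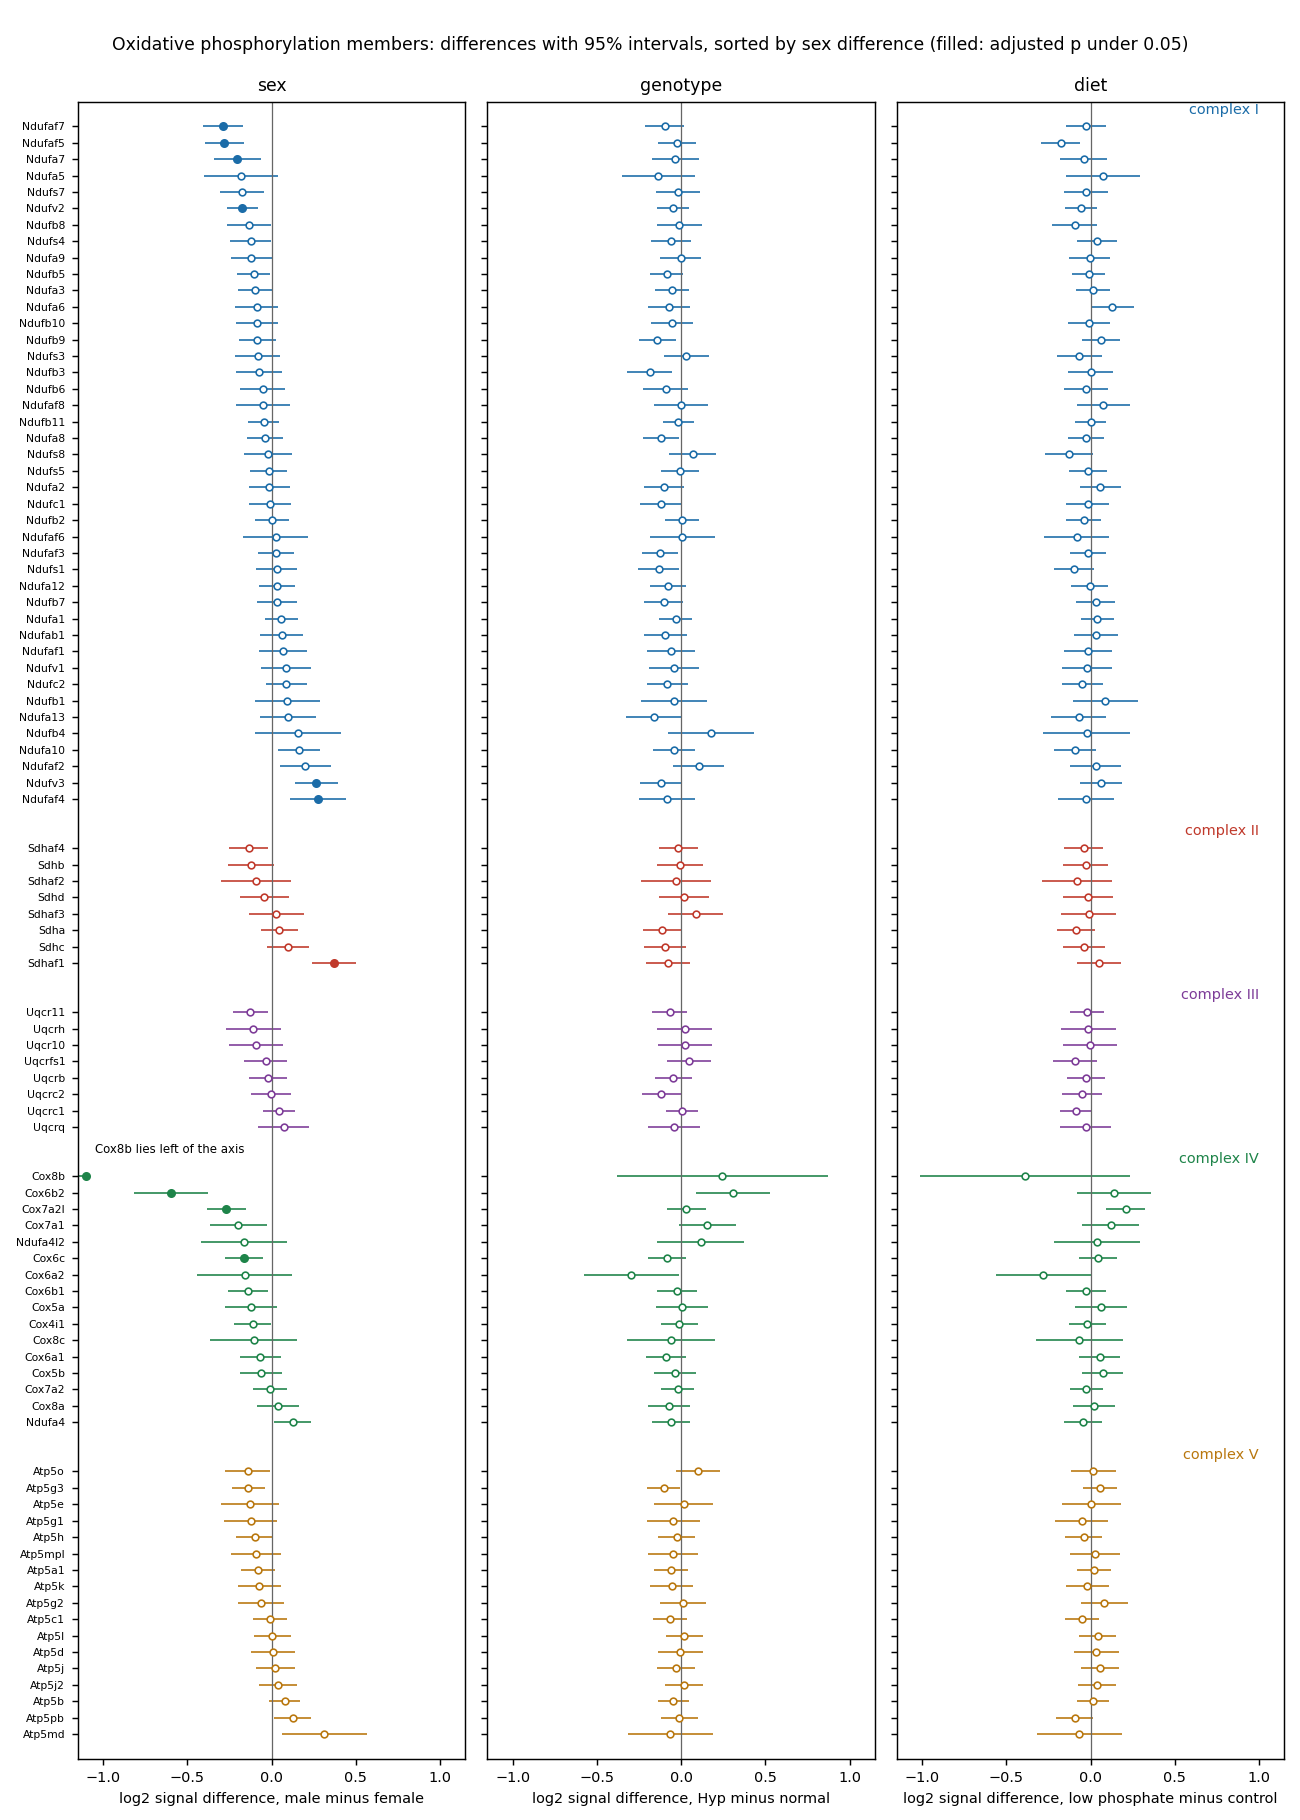
Log2 signal differences (x axis) of the 91 tested members, listed by complex and by sex difference, for sex, genotype and diet; points are differences, lines 95% confidence intervals, and filled points have an adjusted p under 0.05. Filled points occur for sex in 11 members and for neither genotype nor diet; Cox8b, at -2.69, lies beyond the sex panel and is drawn at its left edge.

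The largest difference was that of Cox8b, the isoform of complex IV subunit 8 known from heart, skeletal muscle and brown fat. Its signal was 135.5, 219.8 and 226.1 in the pools of normal females on control diet, and 169.0, 154.6 and 157.8 in normal females on low phosphate. In Hyp females it was 271.7, 260.3 and 250.5 on control diet and 206.6, 252.5 and 189.5 on low phosphate. All 12 female pools were therefore at 135.5 or above, and the 4 highest signals were all of Hyp females, 3 of them on control diet.

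In normal males Cox8b was 70.1, 18.4 and 82.5 on control diet and 10.8, 35.9 and 21.3 on low phosphate. In Hyp males it was 31.1, 91.0 and 9.5 on control diet and 26.6, 50.9 and 29.2 on low phosphate. No male pool exceeded 91.0, so the sexes did not overlap. Cox8b was the one member of 91 for which this held, against 1.97% of all features. The gene passed the filter on low signals through 7 arrays above the array median, all of them female, and every male signal lay below the array median. A gene kept in this way had to be higher in females, so the difference among the filtered features, -2.69 log2 (12 pools a sex), is given as a description. With no filter, so that all features entered whatever their level, the adjusted p was 1.04e-05 by limma. Cox8b was lower in males in all 4 strata of genotype and diet, by -3.12 to -1.99 log2.

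The size of the Cox8b difference is less secure than its direction, because the low male signals set it. With 32 added to each signal before the logarithm the difference was -1.81 log2. The genotype difference of Cox8b was 0.24 log2 with an interval of -0.38 to 0.87, and the diet difference was -0.39 with an interval of -1.01 to 0.23.

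Markers of fat and muscle, the other tissues in which Cox8b is known, were read beside it. Of 6 fat markers, 4 had a named probe set and 2 passed the filter. Ucp1, the uncoupling protein that defines brown fat, was at 11.9 to 55.6 in males and 7.0 to 63.9 in females, below the median on all 24 arrays, as was Cidea (15.7 to 93.4 and 9.0 to 175.2). Adipoq, the fat-cell hormone adiponectin, was lower in males (115.0 to 351.8, median 191.5) than in females (163.7 to 498.7, median 291.1), with a difference of -0.63 log2 (limma adjusted p = 0.00906). Car3, which is abundant in fat, went the other way at 0.48 log2 (limma adjusted p = 0.00827). The summed signal of the 4 fat markers was 849.8 to 3551.5 in males and 779.6 to 2655.9 in females, and without Car3 it was 142.6 to 459.0 and 217.6 to 696.7. Of 5 skeletal muscle markers only Ckm passed the filter, at -0.28 log2 (limma adjusted p = 0.252), and the summed muscle signal was 259.1 to 342.2 in males and 238.5 to 396.4 in females. The part of fat or muscle cells in the Cox8b difference was not tested. In whole-kidney RNA, fewer cells of a type and less RNA per cell cannot be told apart.

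Cox8a, the subunit 8 isoform of most tissues, overlapped between the sexes. Its signal was 7953.8 to 10863.6 in males (median 9211.7) and 7885.1 to 10331.6 in females (median 9048.7). The difference was 0.04 ± 0.06 log2 (limma adjusted p = 0.745), with an interval of -0.08 to 0.16. Cox8c, a testis isoform, had a difference of -0.11 log2 and a wider interval of -0.37 to 0.15.

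**Figure D2:**
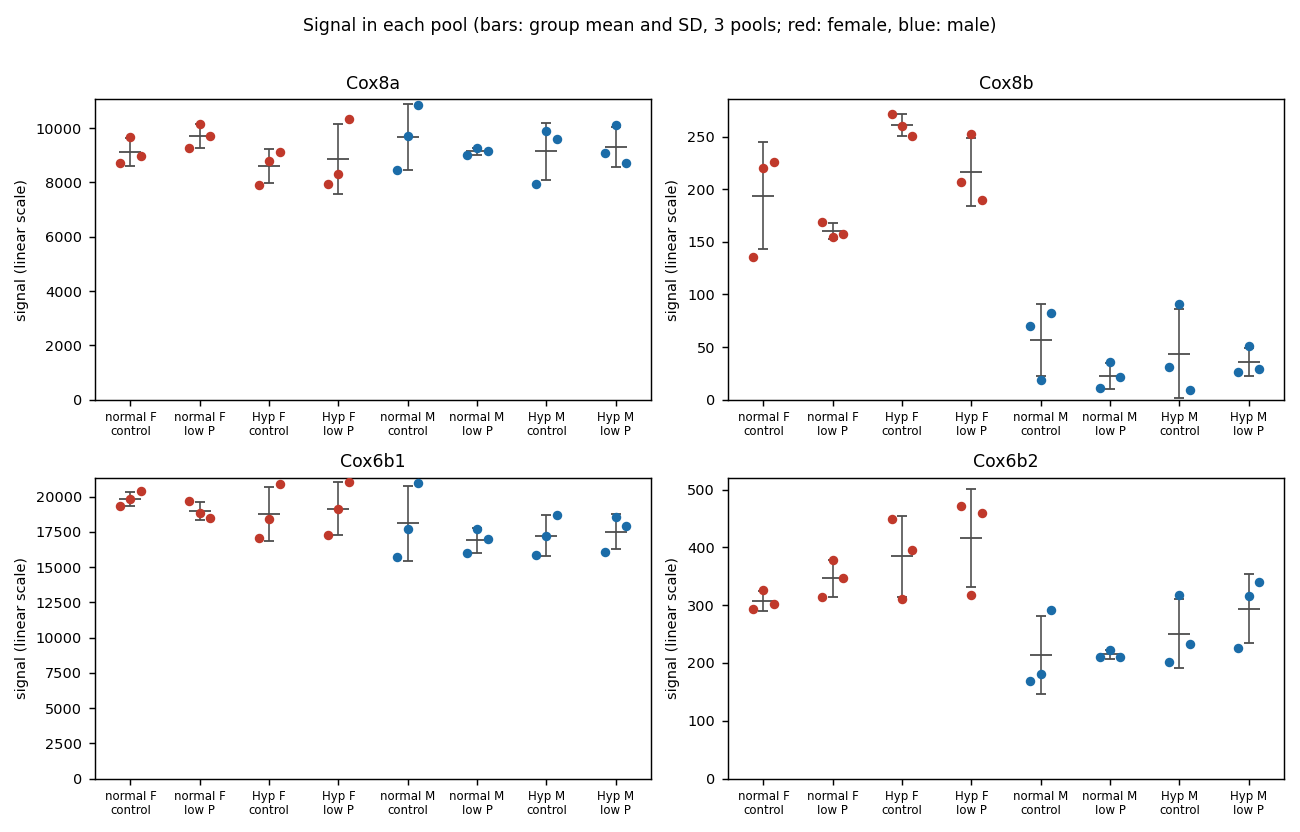
Signal on a linear scale (y axis) of Cox8a, Cox8b, Cox6b1 and Cox6b2 in each of the 24 pools, by group (x axis); bars are group means with the SD of 3 pools, red points are female pools and blue points male pools. Cox8b reaches at most 91.0 in males and at least 135.5 in females, while Cox8a overlaps between the sexes.

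The promoter windows of this isoform pair are shown because 1 isoform was separated by sex and the other was not; whether the windows bear on this was not tested. Each window runs from 250 bases before to 50 after the start of the gene, from RefSeq on GRCm38.p6. The Cox8a window is chr19:7217567-7217866 on the minus strand and holds 19 CpG pairs. The Cox8b window is chr7:140900397-140900696 on the minus strand and holds 2. Capitals mark matches on either strand to the ETS motif CCGGAAGT in Cox8a and to the TATA motif TATAAA in Cox8b. The Cox8b match begins 4 bases after the annotated start, and the Cox8a matches begin 6 before and 31 after it. Whether any match works as a promoter element was not tested.
Cox8a: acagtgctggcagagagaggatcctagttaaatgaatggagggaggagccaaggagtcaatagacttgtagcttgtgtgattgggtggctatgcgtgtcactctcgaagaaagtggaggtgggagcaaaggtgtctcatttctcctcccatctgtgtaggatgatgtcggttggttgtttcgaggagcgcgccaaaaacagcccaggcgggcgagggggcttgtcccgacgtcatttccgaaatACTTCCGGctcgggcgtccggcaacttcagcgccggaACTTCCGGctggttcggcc
Cox8b: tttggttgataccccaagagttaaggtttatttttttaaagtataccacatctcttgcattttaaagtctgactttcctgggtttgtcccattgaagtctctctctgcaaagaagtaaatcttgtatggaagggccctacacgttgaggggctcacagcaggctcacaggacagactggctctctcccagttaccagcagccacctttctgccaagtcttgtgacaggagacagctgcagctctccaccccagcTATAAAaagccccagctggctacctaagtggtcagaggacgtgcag

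Cox6b2, the testis isoform of complex IV subunit 6b, was also lower in males. Its signal was 169.0 to 340.6 in males (median 224.8) and 292.7 to 471.2 in females (median 336.75). Of the 12 male pools, 9 lay below the lowest female pool. The difference was -0.59 ± 0.11 log2 (limma adjusted p = 3.72e-04), and it was -0.89 within the pools numbered series 1 against -0.40 in series 2 and -0.49 in series 3. Cox6b1, the isoform of most tissues, had 15710.2 to 20980.3 in males and 17088.7 to 21019.4 in females, a difference of -0.14 ± 0.06 log2 that did not pass (limma adjusted p = 0.106). It passed with the replicate block (adjusted p = 0.0432) and under quantile normalization (adjusted p = 0.0336).

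Cox7a2l, also called Scaf1, is known as a factor that joins complexes III and IV into supercomplexes, which were not measured here. It gave 1387.3 to 1911.2 in males (median 1705.8) and 1730.4 to 2411.3 in females (median 2023.05), and 8 female pools lay above all male pools. The difference was -0.27 ± 0.06 log2 (limma adjusted p = 0.00169), and its 3 probe sets gave -0.30 to -0.24. With array medians set equal the difference was -0.17 and did not pass (adjusted p = 0.0555). Cox7a1, the heart and muscle isoform of subunit 7a, gave -0.20 ± 0.08 log2 and Cox7a2, the common isoform, -0.01 ± 0.05; neither passed (limma adjusted p = 0.110 and 0.935).

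Cox6c, a subunit of complex IV in all tissues, was lower in males (13391.2 to 16572.2, median 15090.65) than in females (14219.9 to 19832.3, median 17035.4) by -0.16 ± 0.05 log2 (limma adjusted p = 0.0473). This call was the least secure of the 11. A second, dimmer probe set of Cox6c gave 0.12, and leaving out any 1 of 18 of the 24 pools ended the call. The remaining isoform pairs did not pass for sex. Cox6a1 and the muscle isoform Cox6a2 had differences of -0.07 and -0.16 log2. Cox4i1 had -0.11, with Cox4i2 below the filter. Ndufa4, a complex IV subunit despite its name, had 0.13, and its hypoxia-associated relative Ndufa4l2 had -0.16. In complex IV as a whole, 4 of 16 tested members were lower and none higher in males, against 9.87% and 6.08% of all features. The 4 include Cox8b, which was kept through its female signals alone. The median of complex IV was -0.13 log2, and 14 of the 16 differences were negative, as were 59.6% over all features. The 9 tested subunits of complex IV that are no isoform of another tissue or condition and no supercomplex factor had a median of -0.07. With array medians set equal Ndufa4 was called higher in males (0.22 log2), and Cox6c and Cox7a2l were not called. Of the 16 differences 11 were then negative, against 46.8% of all features, with a median of -0.03.

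In complex I the sex differences ran both ways, with 2 members higher and 4 lower in males of 42 tested. The shares over all features were 6.08% and 9.87%, and these counts lay near them. Ndufv3, an accessory subunit of the NADH-oxidising module, was higher in males at 6579.1 to 9567.0 (median 7522.25), against 5585.3 to 7351.9 in females (median 6292.95). The difference was 0.27 ± 0.06 log2 (limma adjusted p = 0.00374). Ndufv2, a core subunit of the same module, was lower in males at 5509.2 to 7061.6, against 6412.4 to 7475.1 in females. The difference was -0.17 ± 0.05 log2 (limma adjusted p = 0.0105). Neighbouring subunits of 1 module thus differed between the sexes in opposite directions, but for Ndufv2 the other 2 probe sets gave -0.01 and -0.10, and with array medians set equal its difference was -0.08 and did not pass.

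Ndufa7, an accessory subunit of complex I, was lower in males (3848.9 to 5432.9) than in females (4852.8 to 6665.8) by -0.21 ± 0.07 log2 (limma adjusted p = 0.0407). Of its 5 probe sets 4 gave -0.31 to -0.14, and the dimmest gave 0.09. The call was lost when any 1 of 14 of the 24 pools was left out.

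The assembly factors, which build the complexes without staying in them, held 4 of the 11 calls among 12 tested members. Of the 12, 2 were higher and 2 lower in males, against 6.08% and 9.87% of all features. Among 27 tested assembly factors whose symbols fall outside the member rule, 3 were higher and 1 was lower. Whether assembly factors as a class differ from all features was not tested. Ndufaf7, a methyltransferase that modifies a core complex I subunit, gave 318.2 to 422.4 in males (median 369.8) and 368.3 to 507.1 in females (median 442.75). It was lower in males by -0.29 ± 0.06 log2 (limma adjusted p = 9.90e-04). Ndufaf5, a hydroxylase of another core subunit, gave 240.0 to 366.2 in males and 305.6 to 441.1 in females, a difference of -0.28 ± 0.05 log2 (limma adjusted p = 0.00104). Ndufaf4 was higher in males, at 724.1 to 1092.5 against 608.6 to 933.2 in females, by 0.28 ± 0.08 log2 (limma adjusted p = 0.0195), and its second probe set gave 0.26. The calls of Ndufaf7 and Ndufaf4 held with array medians set equal (-0.19 and 0.37), and that of Ndufaf5 did not (-0.18, adjusted p = 0.0909).

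In complex II the single call was an assembly factor too. Sdhaf1, which helps insert iron-sulfur clusters into the succinate dehydrogenase subunit Sdhb, was higher in males at 521.8 to 650.4 (median 614.3), against 360.7 to 543.7 in females (median 474.65). Of the 12 male pools, 11 lay above every female pool. The difference was 0.37 ± 0.06 log2 (limma adjusted p = 2.50e-04), 0.30 to 0.45 across the 4 strata of genotype and diet. The 4 subunits themselves did not pass. Sdha, the flavoprotein, had 0.05 log2 with an interval of -0.07 to 0.16, and Sdhb had -0.12 with an interval of -0.26 to 0.01. The membrane anchors Sdhc and Sdhd had 0.10 (-0.03 to 0.22) and -0.04 (-0.19 to 0.10).

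**Figure D3:**
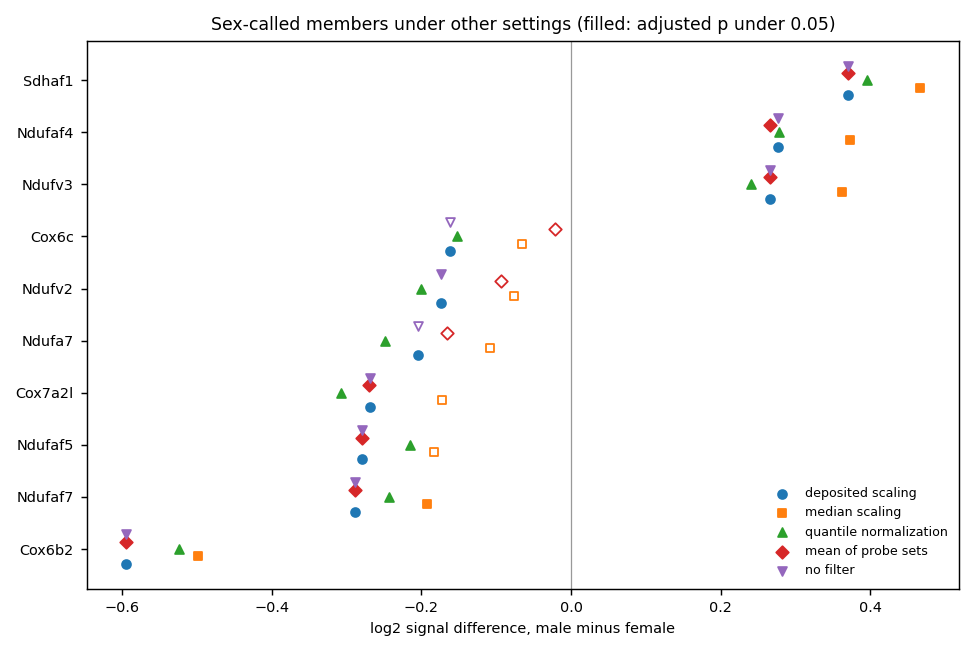
Sex difference in log2 signal, male minus female (x axis), of the sex-called members other than Cox8b under 5 settings; filled markers have an adjusted p under 0.05 and open markers do not. Cox6b2, Ndufaf7, Ndufv3, Ndufaf4 and Sdhaf1 are filled throughout, and no marker crosses 0.

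In complexes III and V no member passed for sex, of 8 and 17 tested, although other settings called a few. The shares over all features were 6.08% higher and 9.87% lower in males, and sets this small hold few calls at such shares. In complex III the 8 members lay between -0.13 (Uqcr11) and 0.07 log2 (Uqcrq), and the smallest adjusted p was 0.0919; Uqcr11 was called lower in males under quantile normalization (adjusted p = 0.0133). In complex V the 17 members lay between -0.14 (Atp5o) and 0.31 (Atp5md), and the smallest adjusted p was 0.0552, for Atp5g3. Atp5g3 was called lower with the series number of the pools as a replicate block (adjusted p = 0.0410) and with the mean of a gene's probe sets (adjusted p = 0.0480). Atp5md and Atp5pb were called higher in males with array medians set equal (0.41 and 0.22 log2). Atp5g1, Atp5g2 and Atp5g3 encode the same mature subunit c of the ATP synthase rotor. Their differences were -0.12, -0.06 and -0.14 log2, with intervals of -0.28 to 0.03, -0.20 to 0.08 and -0.24 to -0.04. The X-linked members Ndufa1 and Ndufb11 had sex differences of 0.06 and -0.05 log2, neither past the threshold.

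Across all sex calls, 6 of the 11 passed under every one of the 7 other settings that kept all pools and without any single pool: Cox8b, Cox6b2, Ndufaf7, Sdhaf1, Ndufv3 and Ndufaf4. Cox8b entered through its female signals in all of these fits but the one with no filter, so only that fit bears on its call. Each of the 11 kept its sign within each of the 3 series numbers of the pools and in each of the 4 strata of genotype and diet. The same pools gave the calls, so this agreement is a description and adds no support to them. Of all 91 members, 34 had the same sign in all 4 strata. Markers of kidney cell types also differed between the sexes. Of 6 proximal tubule markers 2 were higher and 2 lower in males, among them the organic anion transporter Slc22a6 (1.23 log2) and the receptor Cubn (-0.52). Markers of the thick ascending limb were lower in 2 of 4, of the distal convoluted tubule in 2 of 3, of the collecting duct in 1 of 4 and of leukocytes in 2 of 3, with none higher. The 1 red blood cell marker above the filter, Alas2, had -0.44 log2 (limma adjusted p = 0.0715). The summed proximal tubule signal was 41447.8 to 53846.7 in males and 37155.6 to 54272.8 in females. The part of cell composition in the members' differences was not tested.

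The genotype comparison asks how the Phex mutation bears on these genes, and no member passed it. Over all features 1.11% were called higher and 0.945% lower in Hyp, and limma called 0 of 91 members in either direction. An unadjusted p under 0.05 was reached by 9 members (9.89%, against 10.8% of all features). The median member difference was -0.04 log2 (Hyp minus normal), against 0.00 over all features, and 23 of 91 members lay above 0, against 49.4% of all features. Complex I showed the lowest median, -0.06, with 6 of 42 members above 0. The medians of complexes II to V lay between -0.03 and -0.02.

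Of the 5 members with the smallest genotype p, 4 belonged to complex I. Ndufb3, an accessory subunit of the membrane arm, gave 2296.5 to 3028.1 in Hyp (median 2633.85) and 2375.4 to 3887.9 in normal pools (median 3017.45), -0.19 ± 0.06 log2 (limma adjusted p = 0.197). Ndufb9 gave -0.14 ± 0.05, the assembly factor Ndufaf3 -0.12 ± 0.05 and Ndufa8 -0.12 ± 0.05, with limma adjusted p of 0.269, 0.342 and 0.379. Cox6b2 gave 202.3 to 471.2 in Hyp and 169.0 to 378.4 in normal pools, 0.31 ± 0.11 log2 (limma adjusted p = 0.190), and was higher in Hyp in all 4 strata of sex and diet. The genotypes overlapped for all 91 members, and 0.0483% of all features had no overlap. Among proximal tubule markers 3 of 6 were lower in Hyp, among them the glucose transporter Slc5a2 (-0.64 log2), and the summed signal of that list was 37155.6 to 48388.6 in Hyp and 45813.3 to 54272.8 in normal pools. Of 3 distal convoluted tubule markers the sodium chloride cotransporter Slc12a3 was higher in Hyp (0.50 log2) and Pvalb lower (-0.31), and their summed signal was 6964.8 to 8901.5 in Hyp and 4989.5 to 7679.8 in normal pools. Of 4 thick ascending limb markers the potassium channel Kcnj1 was higher (0.24), with sums of 30238.5 to 36423.4 and 28067.6 to 37219.5. The summed signal of the 4 fat markers was 779.6 to 1697.0 in Hyp and 1377.6 to 3551.5 in normal pools, with Car3 lower in Hyp by -1.45 log2. Car3 made up much of that sum. The sum without Car3 was taken by sex only (142.6 to 459.0 in males and 217.6 to 696.7 in females). Whether the genotype difference of the sum holds without Car3 was not tested. Adipoq, the other of the 2 tested fat markers, was not called for genotype and differed in the opposite direction to Car3. No collecting duct, leukocyte, red blood cell or muscle marker passed. The part of these cell types in the members' median was not tested.

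**Figure D4:**
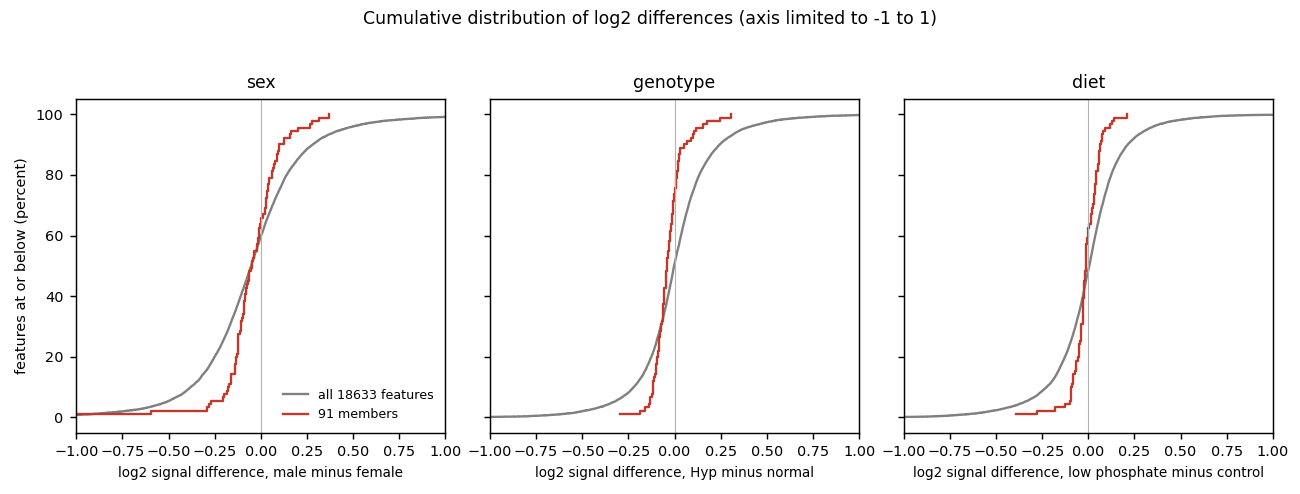
Share of features (y axis, percent) at or below a given log2 difference (x axis, limited to -1 to 1) for sex, genotype and diet; the red line holds the 91 members and the grey line all 18633 features tested. The members' line is the steeper in each panel, and for genotype it crosses 0 with 23 of 91 members to its right.

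The diet comparison asks what 3 days of low phosphate did to the same genes, and again no member passed. Over all features 0.419% were called higher and 0.36% lower on low phosphate. For diet limma called 0 of 91 members, and an unadjusted p under 0.05 was reached by 3 (3.30%, against 9.50% of all features). The median member difference was -0.01 log2 (low phosphate minus control), against 0.01 over all features. Above 0 lay 34 of 91 members (37.4%, against 51.3% of all features). The medians ran from -0.03 in complex II to 0.03 in complex IV. In complex III 0 of 8 members lay above 0, with differences of -0.09 to -0.003 log2. The diets overlapped for all 91 members, and 0.0107% of all features had no overlap between the diets.

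Cox7a2l had the smallest diet p. Its signal was 1466.0 to 2411.3 on low phosphate (median 1978.5) and 1387.3 to 2000.3 on control diet (median 1741.5), and 6 low-phosphate pools lay above all control pools. The difference was 0.21 ± 0.06 log2 with an interval of 0.09 to 0.32 (limma adjusted p = 0.109), positive in all 4 strata of genotype and sex. Its other 2 probe sets gave 0.06 and -0.03, and the mean of the 3 gave 0.08 (adjusted p = 0.744). The difference passed without the normal male low-phosphate pool of series 3 (adjusted p = 0.0371), and over all settings the adjusted p ran from 0.0371 to 0.744. Ndufaf5 gave -0.18 ± 0.05 and Ndufa6, an accessory subunit of complex I, 0.13 ± 0.06, with limma adjusted p of 0.210 and 0.507. Cox6a2 gave -0.28 ± 0.14 and Uqcrc1, a core protein of complex III, -0.09 ± 0.04, with limma adjusted p of 0.527 and 0.559.

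No member passed for an interaction, the test of whether 1 factor's difference depends on another. Genotype by diet was called for 0.0161% of all features, genotype by sex for 0.0805% and diet by sex for 0%, and for 0 of 91 members in each by limma. Members with an unadjusted p under 0.05 numbered 2, 0 and 6 (2.20%, 0% and 6.59%, against 5.37%, 6.47% and 5.33% of all features). The smallest belonged to the complex II assembly factor Sdhaf4 for diet by sex. Its group means on control and low-phosphate diet were 1270.0 ± 168.6 and 1298.5 ± 80.3 (SD, 3 pools) in normal males and 1084.4 ± 44.1 and 1308.9 ± 28.2 in Hyp males. In normal females they were 1453.7 ± 42.6 and 1206.3 ± 122.0, and in Hyp females 1496.2 ± 155.2 and 1297.1 ± 102.6. The diet difference in males minus that in females was 0.39 ± 0.11 log2 (limma adjusted p = 0.635). Interaction intervals were wide: 11 of 91 members had one within 0.25 log2 units of 0 for genotype by sex and for diet by sex, and 12 for genotype by diet.

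The complexes were also summarised in each pool by the median deviation of their members from their own means over all pools. Over the 8 groups the mean of this value for all members ran from -0.05 in Hyp males on control diet to 0.06 in normal females on control diet, with a pooled SD of 0.06 between pools of a group. Complex IV spanned -0.07 (Hyp males on control diet) to 0.08 (normal females on low phosphate), with a pooled SD of 0.08. The series 1 pools of normal and Hyp males on control diet stood lowest for complexes IV and V, at -0.22 and -0.20 for complex IV and -0.16 and -0.18 for complex V, while complex II was at 0.08 and 0.06 in the same pools. Between members of 1 complex the median correlation of deviations within groups was 0.15, between members of different complexes 0.13, and between a member and other features -0.05; these are descriptions over 24 pools that share arrays and scaling.

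**Figure D5:**
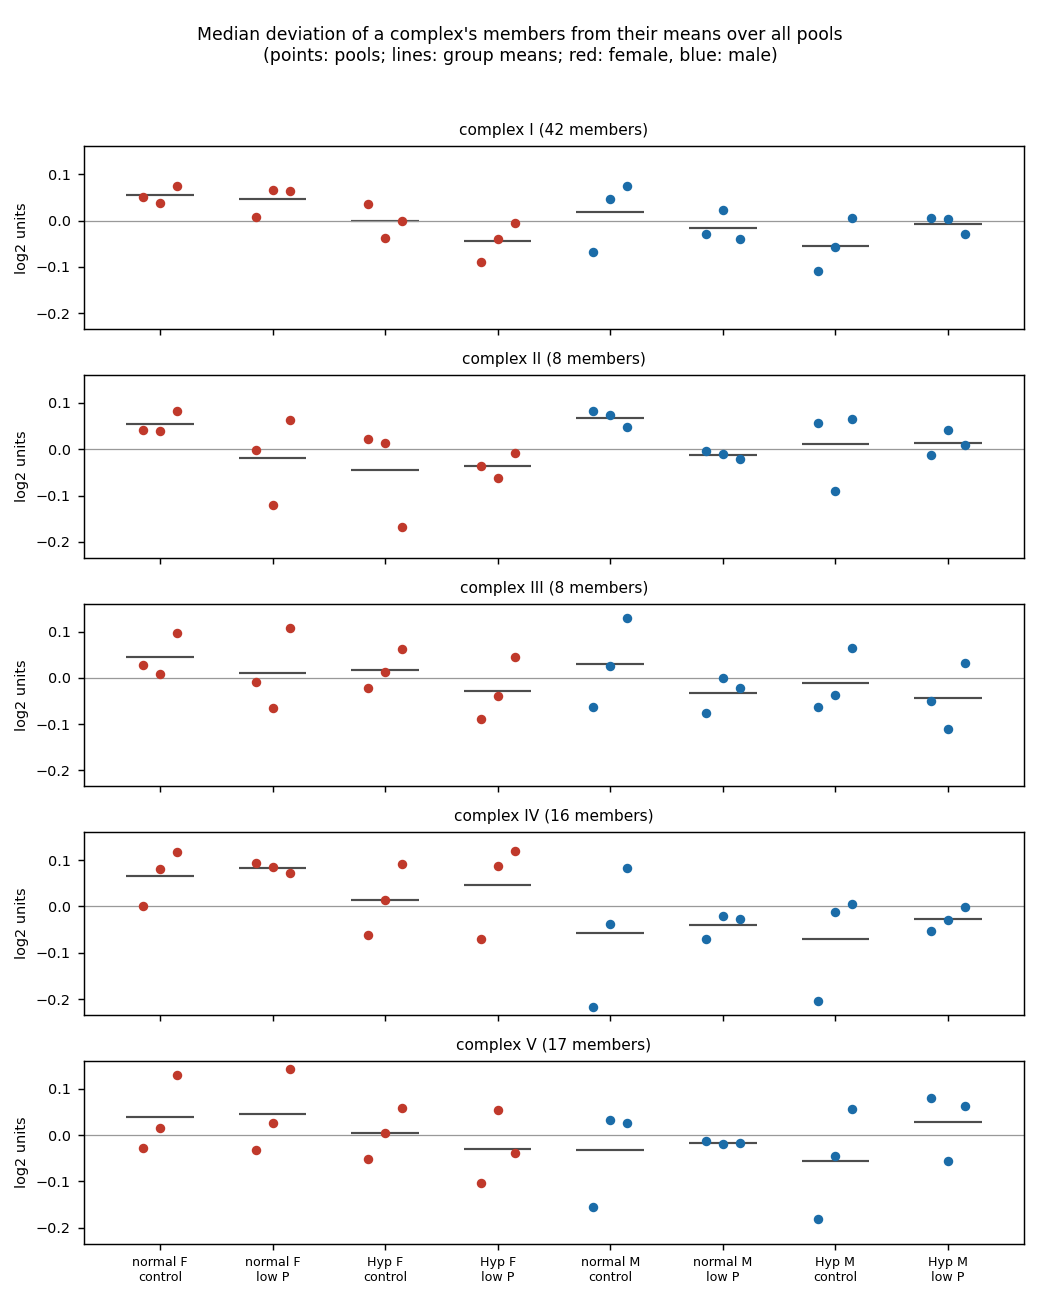
Median deviation, in log2 units (y axis), of the tested members of each complex from their means over all pools, for each of the 24 pools by group (x axis); points are pools, lines group means, red female and blue male. The series 1 pools of normal and Hyp males on control diet lie lowest in complexes IV and V, at -0.22 and -0.18 at the extreme.

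Other genes of the pathway fall outside the name rule, and their sex calls also ran both ways. Of 11 tested subunits and carriers, Cycs, the cytochrome c that shuttles electrons between complexes III and IV, was higher in males by 0.36 ± 0.06 log2 and Etfdh, which feeds electrons from fat oxidation to ubiquinone, by 0.27 ± 0.04. The ADP/ATP carrier Slc25a4 was lower by -0.39 ± 0.05 (limma adjusted p = 1.30e-04, 2.06e-04 and 9.76e-06). Of 27 tested assembly factors outside the rule, Acad9, which serves both fat oxidation and complex I assembly, Ecsit and Cox15 were higher in males and Uqcc2 was lower. Of 15 regulators, Gabpb1, a subunit of the ETS-family factor GABP, and the polymerase subunit Polg2 were lower in males (-0.51 and -0.27 log2). In the citric acid cycle 3 of 12 (Suclg2, Dld and Dlst) were higher, in mitochondrial membrane and import Hspd1 was higher and Vdac2 lower of 14, and of 20 mitochondrial ribosomal proteins none passed. The shares over all features were 6.08% higher and 9.87% lower in males. No gene of these 6 lists passed for genotype or diet. There the shares over all features were also low, at 1.11% higher and 0.945% lower in Hyp. On low phosphate they were 0.419% higher and 0.36% lower. Their genotype medians lay between -0.06 and -0.03 log2. The mitochondrially encoded subunits were not analysed here.

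RefSeq promoter windows of 300 bases were matched for 78 of the 94 members, in 83 windows. The motif of nuclear respiratory factor 1, GCGCANGCG on either strand, occurred in 23 of the 83 windows (27.7%), against 6.25% of all 32851 windows. The YY1 motif AAGATGGC occurred in 12% against 2.75%, the ETS motif CCGGAAGT in 6.02% against 3.89%, the estrogen-related receptor motif TCAAGGTCA in 2.41% against 0.423%, and the TATA motif TATAAA in 12% against 13.6%. The median GC content was 59.0% in members and 52.7% in all windows, and base composition bears on how often such letters occur. Ndufaf4, higher in males, is shown as a sex-called member with the NRF1 motif. Ndufaf5, lower in males, also has this motif, and the other sex-called members with a window do not. Whether the motif bears on the sex differences was not tested. The overlapping matches on both strands in Ndufaf4 are in capitals, from chr4:24897833-24898132 on the plus strand.
Ndufaf4: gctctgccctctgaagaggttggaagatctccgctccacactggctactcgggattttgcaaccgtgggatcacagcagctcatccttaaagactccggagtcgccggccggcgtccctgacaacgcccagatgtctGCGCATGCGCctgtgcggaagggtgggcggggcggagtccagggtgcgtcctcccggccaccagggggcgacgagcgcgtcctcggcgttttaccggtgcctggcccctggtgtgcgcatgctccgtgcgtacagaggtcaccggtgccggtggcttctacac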

How the data were processed

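Each of the 48 arrays has a deposited table of linear intensity, 1 value a probe set. Per the submitters' processing notes, the authors used GCOS 1.2; detection calls were not used here. On every array the trimmed mean of the 100 probe sets shared by both chips was 1200, so the deposited intensity was already scaled. Precision rests on the number of arrays, which have no read depth.

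Symbols came from the platform's annotation, updated through Entrez identifiers against RefSeq's GRCm38.p6 gene table. Of 45037 probe sets, 34945 had 1 symbol, 932 several and 9160 none, and 34741 were matched; 10 probe sets naming a member and another gene were not used. Probe sets above the array median on fewer than 3 of 24 arrays were left out. Signals below 1 were set to 1 and log2 values were fitted with limma 3.58.1 in R 4.3.3, with 8 group means, chips separately and Benjamini-Hochberg adjustment over 18633 features at 0.05. A main effect averages the 4 strata of the other factors. The fit was tested on simulated data. Promoter motifs were searched on both strands.

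Members, gene lists and tests were chosen with earlier results of these data known. The named genes were up to 10 rises and 10 falls of largest fold past the threshold for each main effect, or the 5 smallest p where fewer than 5 passed. The 10 highest and 5 lowest signals, the isoform families, all complex II subunits and up to 4 genes of smallest p from each other list completed the rule; of the lists other than cell markers, only genes past the threshold are printed. The alternatives were the replicate block, no filter, 32 added before the logarithm, median scaling, quantile normalization, 430A probe sets first, the mean of a gene's probe sets, and leaving out each of 24 pools. Whether the numbered series of pools were batches is not given in the sources used here.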

Additional observations from a re-analysis of the deposited data

How the results depend on the processing

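The counts of members called for genotype and for each interaction were 0 in all settings, and that for diet was 0 in all settings that kept every pool. For sex, median scaling gave 7 members higher in males and 3 lower and a median of 0.043 log2, and quantile normalization gave 14 lower (adding Cox6b1, Ndufb5, Ndufb8, Ndufs4, Ndufs7 and Uqcr11); the causes were not tested. Leaving out 1 pool gave 3 to 5 members higher and 6 to 12 lower in males, the 5 arising without series 1 of Hyp males or of Hyp females on control diet. Leaving out 1 pool gave 0 to 1 members higher on low phosphate, the 1 (Cox7a2l) arising without series 3 of normal males on low phosphate. The median member difference then ranged from -0.063 to -0.035 for sex, -0.052 to -0.029 for genotype and -0.020 to -0.0028 for diet. None of the 21 named differences changed sign in any setting. Without the filter Cox7c was called lower in males, and Cox6c and Ndufa7 were lost, as they were with the mean of probe sets.

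The pools share series numbers across groups. Over 84 pairs of same-numbered pools the correlation of deviations from group means was -0.05 to 0.09. Its median was 0.03, against -0.01 between pools of different numbers, and 22 of 24 pools correlated best with their own number. These correlations are small but do not show that the number can be ignored, and the main fit has no term for it. With the number as a replicate block, 3 members were higher and 12 lower in males, all 11 calls of the fit without the block among them (the 4 gained were Atp5g3, Cox6b1, Ndufb8 and Ndufs7), that is 13.2% of members lower against 11.1% of all features, and no other count changed. Low signals limit Cox8b, Cox6a2, Ndufa4l2, Cox6b2 and Ndufb4, and high signals, above 20000 in 5 members, lie near the top of the scale (30303 to 47504 on the 430A arrays).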

Other observations

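The members' level followed the series number of the pools in part, a pattern noticed in the data and given as values only. In complex IV the series 1 pool had the lowest median deviation in 7 of 8 groups and the series 3 pool the highest in 6 of 8, with medians over pools of -0.07 for series 1 and 0.08 for series 3. In complex V series 1 was lowest in 6 groups, and in complex III series 3 was highest in 7. Complex II showed no such order, with series 1 lowest in 1 group and highest in 3.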
